A study of Mus musculus with 6 samples.

Results

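The synaptic vesicle and postsynaptic scaffold genes are 35 named genes, of which 22 act on the presynaptic side (vesicle proteins, the fusion machinery, the active zone and vesicle endocytosis) and 13 on the postsynaptic side or in adhesion. They were taken by gene symbol, each matched 1 row of a table of 36079 genes, and all 35 were among the 16009 genes tested, those whose mean reached 0.5 FPKM. FPKM counts fragments per length of gene and depth of library, so levels of different genes can be set side by side. The mice had epilepsy induced by kainic acid (KA), a glutamate receptor agonist that provokes seizures, and the temporal lobe was sequenced as messenger RNA, with the labels giving the tissue as brain. One group ate chow (labelled CD, 3 mice) and the other a ketogenic diet (labelled KD, 3 mice), rich in fat and poor in carbohydrate so that ketone bodies rise in blood, both for 3 weeks and with 1 library per mouse. Both groups had received kainic acid, and no mouse without it is among the samples. The sources used here do not give strain, sex or age.

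Chemical synapses release transmitter from small vesicles that are held near the membrane, docked at the active zone, fused by SNARE proteins when calcium enters, and then recovered by endocytosis. Across the cleft, scaffold proteins hold receptors in place, adhesion proteins span the gap, and calcium-dependent kinases adjust the strength of the contact. Several of these proteins exist as paralogs used by different neurons. In the rodent brain the vesicle protein gene Sv2b and the complexin gene Cplx2 are known mainly from forebrain, Vamp1 from thalamus, brainstem and spinal cord, and Sv2c from basal ganglia, while neurogranin (Nrgn) and Camk2a mark forebrain principal neurons. The SV2A protein is the binding target of the antiseizure drug levetiracetam.

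No member passed the test of diet. The test was limma on log2(FPKM + 0.5) over all 16009 genes, two-sided, with Benjamini-Hochberg adjustment and a threshold of 0.05. It called 0 genes, a background of 0%, and the smallest adjusted p of a member was 0.752 (0.430 over all alternative settings). At an unadjusted p under 0.05 the members on the higher side were Amph, Shank2 and Nlgn2, 3 of 35 where 2.06% of all genes were on that side, and none was on the lower side, where 3.32% of all genes were. The log2 change was above 0 in 30 of the 35 members, against 43.1% of all genes. The median log2 change was 0.20 over the members and -0.036 over all genes tested. In 7 members all 3 ketogenic libraries lay above all 3 chow libraries, which was so in 4.9% of all genes, and in 0 members they lay below, against 7.49% of all genes. These 7 were Syp, Vamp2, Amph, Synj1, Shank2, Nlgn2 and Itpka.

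In most members 1 chow library was the lowest of all, and 1 ketogenic library was the lowest of its diet. Chow replicate 1 was the lowest of the 6 libraries in 23 of the 35 members, against 22% of all genes, and the highest in 4, against 29.6% of all genes. The median deviation of the 35 members from their own means over the 6 libraries was -0.37 (log2) in chow replicate 1 and 0.011 and 0.0017 in chow replicates 2 and 3. It was 0.18, 0.22 and -0.063 in ketogenic replicates 1, 2 and 3. Without chow replicate 1 the median log2 change of the members was 0.11, with 26 of 35 above 0. Leaving out 1 library moved the log2 change by more than 1.5 times, or turned its sign, in 30 of the 35 members (26 of them when that library was chow replicate 1). The 5 in which no library did so were Syp, Amph, Synj1, Shank2 and Nlgn2. The rule is relative to the change itself, so changes near 0 meet it easily. Gphn (0.0041), Sh3gl2 (0.016) and Snap25 (0.063) met it for each of the 6 libraries. The share of all genes that meet it was not counted. Within its own diet, ketogenic replicate 3 was the lowest library in 26 of 35 members, against 28.9% of all genes. Chow replicate 1 was the lowest chow library in 24 of 35, against 33.3% of all genes. Without ketogenic replicate 3 the median log2 change of the members was 0.31.

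**Figure D1:**
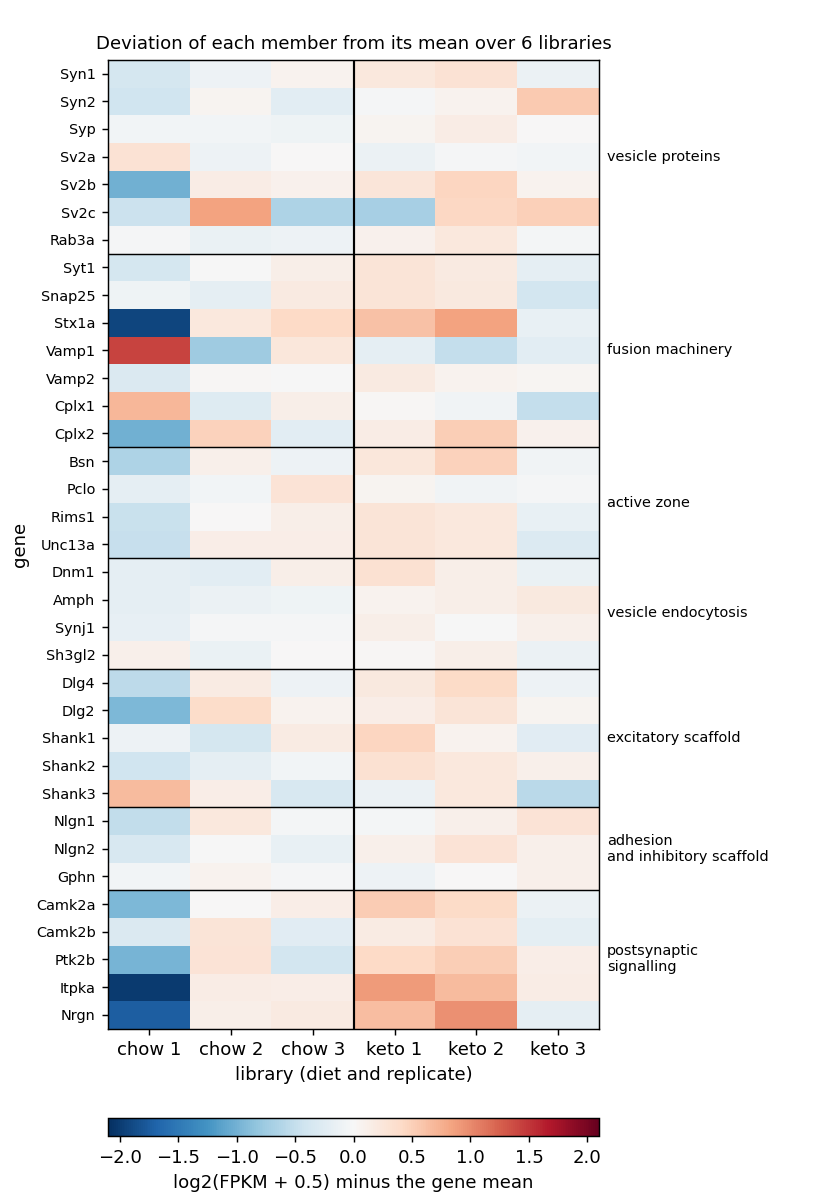
Each cell is a member's log2(FPKM + 0.5) in a library minus its mean over the 6 libraries, from blue (below the mean) to red (above), with members in rows by role and libraries in columns by diet. Chow replicate 1 is blue in most rows, down to -2.00 for Itpka, and red for Vamp1 (1.41), Cplx1, Shank3 and Sv2a.

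Chow replicate 1 also stood apart in several lists of markers of brain regions and cell types. Its summed level of 8 thalamic markers was 369 FPKM, against 62.9 FPKM in chow replicate 3 and 16.5 to 28.4 FPKM in the other 4 libraries. The 7 excitatory neuron markers summed to 106 FPKM there and to 193 to 360 FPKM in the others. Slc17a7 made up 62.6 FPKM of that sum in chow replicate 1. Of these markers only Neurod6 was not lowest there, at 22.1 FPKM against 20.9 FPKM in chow replicate 2 and 14.2 FPKM in ketogenic replicate 3. The 8 oligodendrocyte markers summed to 2161 FPKM in chow replicate 1 and to 617 to 1412 FPKM in the others. The 8 pan-neuronal markers did not separate it in the same way, with sums of 663 FPKM in chow replicate 1 and 511 to 585 FPKM in the other libraries. They differed among themselves, as Uchl1, Tubb3, Nefm, Stmn2 and Elavl3 were highest there and Rbfox3 lowest (19.7 against 30.3 to 47.7 FPKM). Map2 and Elavl4 were neither. The 8 inhibitory neuron markers summed to 236 FPKM in chow replicate 1 and to 315 to 450.5 FPKM in the other libraries, but they differed among themselves. Sst, at 50.8 FPKM there and 142 to 260 FPKM in the others, weighed most in that gap. Gad1, Vip, Dlx1 and Lhx6 were also lowest there, Pvalb was highest (55.5 FPKM), and Gad2 and Slc32a1 were neither. The 8 endothelial markers were the only one of the 11 lists whose sums separated the diets, the chow libraries having 111, 92.9 and 91.0 FPKM, above the 75.6, 89.0 and 78.2 FPKM of the ketogenic libraries. None of the markers of these 6 lists was at 0 in any library. The 9 striatal markers were high in chow replicate 2, ketogenic replicate 2 and ketogenic replicate 3 (1041, 824 and 291 FPKM) and 50.3 to 77.7 FPKM in the other 3. The 8 choroid plexus markers summed to 862 and 1938 FPKM in chow replicates 1 and 3, to 1108 FPKM in ketogenic replicate 3 and to 4.15 to 8.49 FPKM in the others, with Folr1 at 0 in chow replicate 2 and Otx2 at 0 in ketogenic replicate 2. When each library's thalamic marker score entered the fit as a covariate (the thalamic score below), the median log2 change of the members was 0.056, with 20 of 35 above 0. That score was 2.74 in chow replicate 1, 0.57 in chow replicate 3 and -0.97 to -0.72 in the other 4 libraries. Both high values were from chow, so with 6 libraries the fit cannot separate the score from diet or from chow replicate 1. The part of the regional and cell type markers in the members' values was therefore not tested. In bulk tissue, fewer cells of a type and less RNA per cell cannot be told apart.

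**Figure D2:**
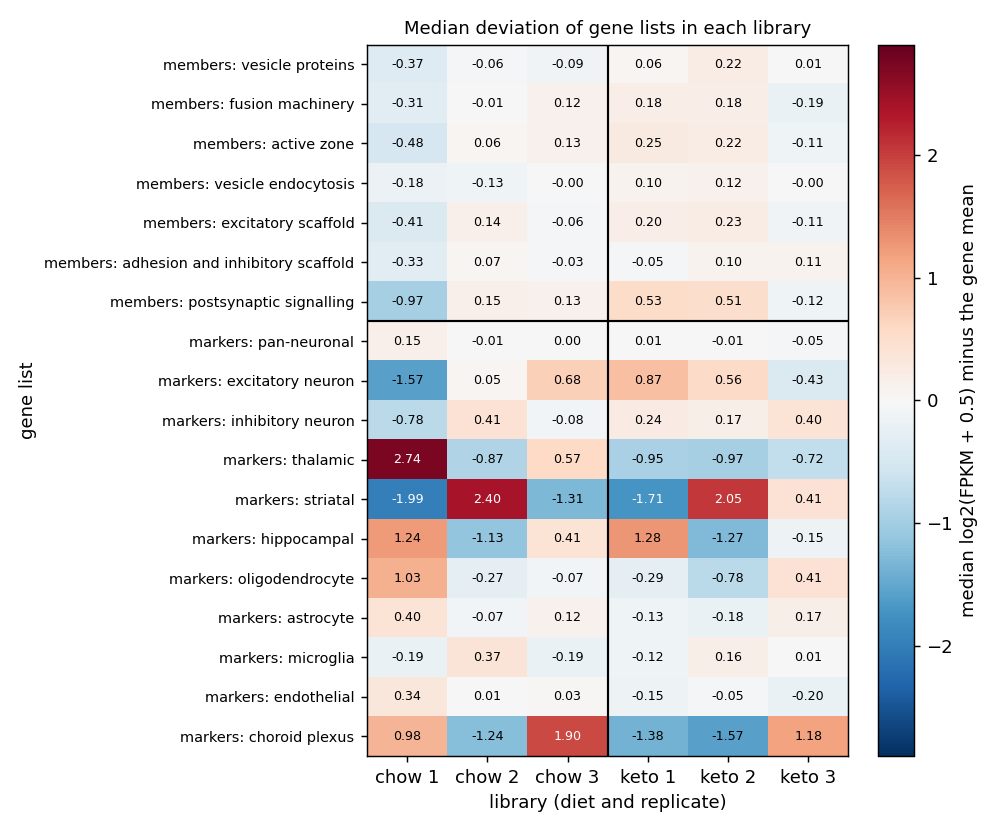
Each cell gives the median, over the genes of a list, of log2(FPKM + 0.5) minus the gene mean, for the 7 role groups of the members (above the line) and 11 marker lists (below it), in each of the 6 libraries. Postsynaptic signalling members (-0.97) and excitatory neuron markers (-1.57) are low in chow replicate 1, where thalamic markers stand at 2.74 and pan-neuronal markers at 0.15.

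The postsynaptic signalling members spread most between libraries, with a median ratio of 2.82 between a gene's highest and lowest library. Their 5 log2 changes were all above 0, with a median of 0.71 that was 0.31 without chow replicate 1. Neurogranin, the product of Nrgn (ENSMUSG00000053310), binds calmodulin in dendritic spines and had the highest group mean of all members. It measured 124, 453 and 471 FPKM in chow replicates 1, 2 and 3 and 647, 804 and 362 FPKM in ketogenic replicates 1, 2 and 3. Chow replicate 1 was far below the rest, and the groups overlapped because ketogenic replicate 3 lay under chow replicates 2 and 3. The means were 349 ± 195 FPKM on chow and 604 ± 224 FPKM on the ketogenic diet (SD, n = 3). The log2 change was 0.94 ± 0.57 (SE), with 95% limits of -0.44 and 2.32. It was 0.31 without chow replicate 1 and -0.018 when the thalamic score was fitted. Itpka (ENSMUSG00000027296), which phosphorylates inositol trisphosphate and bundles actin in spines, measured 9.91, 45.7 and 45.4 FPKM in the chow and 77.4, 65.4 and 45.8 FPKM in the ketogenic libraries. It had the largest log2 change of the members, 1.14 ± 0.60 (SE; 0.43 without chow replicate 1 and 0.062 with the thalamic score). Its groups were separated only by 45.7 FPKM in chow replicate 2 against 45.8 FPKM in ketogenic replicate 3.

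Both CaMKII subunit genes and Ptk2b had the same low library. Camk2a (ENSMUSG00000024617), the alpha subunit of the kinase of long-term potentiation, measured 185, 356 and 390.2 FPKM in the chow libraries and 512, 467 and 327 FPKM in the ketogenic libraries, a log2 change of 0.53 ± 0.32 (SE) that was 0.20 without chow replicate 1. Chow replicate 1 was lowest and ketogenic replicates 1 and 2 highest. Camk2b (ENSMUSG00000057897), the actin-binding beta subunit, spread less, with 76.6, 115 and 80.4 FPKM in the chow and 108, 118 and 82.4 FPKM in the ketogenic libraries, and the groups overlapped. The calcium-activated tyrosine kinase gene Ptk2b (ENSMUSG00000059456) measured 34.2, 82.6 and 51.9 FPKM in the chow and 91.1, 96.6 and 74.2 FPKM in the ketogenic libraries, a log2 change of 0.71 ± 0.31 (SE; unadjusted p = 0.0589, adjusted p = 0.752 in limma). Only chow replicate 2 reached into the ketogenic range. Leaving out chow replicate 1 gave a log2 change of 0.40, and fitting the thalamic score gave 0.12.

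**Figure D3:**
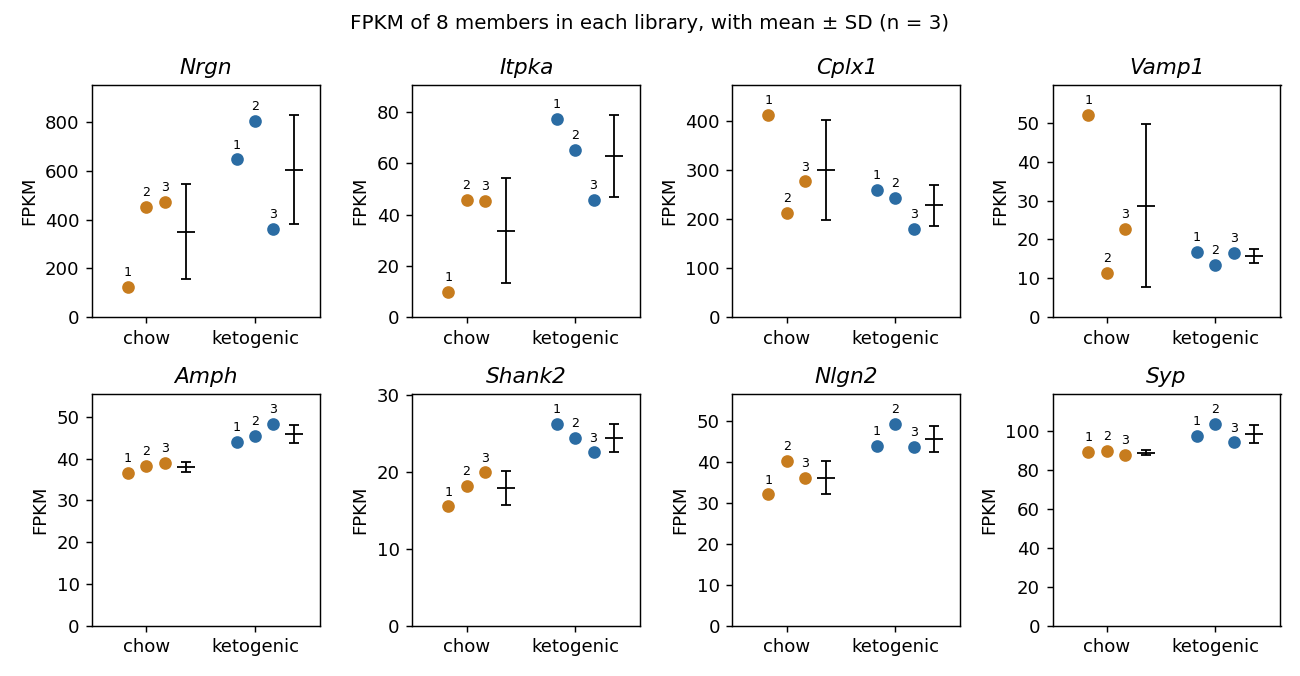
FPKM of 8 members in every library, with chow libraries in orange and ketogenic libraries in blue, replicate numbers above the points, and the group mean ± SD (n = 3) as black bars on axes that start at 0. The upper row shows 4 members in which chow replicate 1 stands apart, low in Nrgn and Itpka and high in Cplx1 and Vamp1, and the lower row 4 members whose groups do not overlap.

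The upstream sequence of members with opposite behaviour in chow replicate 1 is shown for orientation, Nrgn and Itpka being lowest and Cplx1 and Vamp1 highest there, together with Syn1, which holds both a cyclic AMP response element and the beginning of a REST site. Each window is the 250 bases before the gene start in RefSeq (build GRCm38.p6, 5′ to 3′ on the gene's strand), whereas the FPKM table was made on GRCm39. Capitals mark exact matches, on either strand, to TGACGTCA (cyclic AMP response element) or to TCAGCACC (the beginning of the site of the repressor REST). They also mark the GC box, GGGCGG.
Nrgn (chr9:37552746-37552995, minus strand): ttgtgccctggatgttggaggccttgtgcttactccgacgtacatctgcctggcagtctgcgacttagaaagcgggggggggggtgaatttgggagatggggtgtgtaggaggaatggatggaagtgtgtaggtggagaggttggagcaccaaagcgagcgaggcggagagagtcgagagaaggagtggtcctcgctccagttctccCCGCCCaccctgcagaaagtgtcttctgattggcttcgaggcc
Itpka (chr2:119742087-119742336, plus strand): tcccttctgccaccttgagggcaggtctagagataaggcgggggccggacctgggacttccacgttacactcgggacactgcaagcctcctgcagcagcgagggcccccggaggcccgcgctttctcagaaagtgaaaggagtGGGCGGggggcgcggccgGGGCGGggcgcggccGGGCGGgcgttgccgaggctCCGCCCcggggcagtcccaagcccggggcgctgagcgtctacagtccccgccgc
Cplx1 (chr5:108550028-108550277, minus strand): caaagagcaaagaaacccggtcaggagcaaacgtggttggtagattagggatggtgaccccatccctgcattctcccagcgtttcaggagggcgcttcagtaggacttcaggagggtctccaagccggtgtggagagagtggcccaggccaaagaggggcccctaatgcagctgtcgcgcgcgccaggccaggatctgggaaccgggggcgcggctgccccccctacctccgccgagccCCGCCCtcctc
Vamp1 (chr6:125215331-125215580, plus strand): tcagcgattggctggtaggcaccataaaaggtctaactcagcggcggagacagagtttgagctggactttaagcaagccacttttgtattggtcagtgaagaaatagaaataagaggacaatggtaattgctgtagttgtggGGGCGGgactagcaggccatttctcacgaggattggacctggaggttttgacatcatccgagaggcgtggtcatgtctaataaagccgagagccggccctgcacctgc
Syn1 (chrX:20920919-20921168, minus strand): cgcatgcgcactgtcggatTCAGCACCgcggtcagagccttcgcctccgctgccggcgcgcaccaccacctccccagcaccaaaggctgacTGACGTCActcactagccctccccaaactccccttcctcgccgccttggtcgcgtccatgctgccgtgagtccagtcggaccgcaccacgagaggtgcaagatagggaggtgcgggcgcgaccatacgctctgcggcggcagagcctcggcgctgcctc

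The printed windows did not sort by these letters. The GC box occurred 1 time each in Nrgn, Cplx1 and Vamp1, 4 times in Itpka and 0 times in Syn1. RefSeq windows were found for 29 members (41 windows, as some genes have several starts). Of these windows 51.2% held a GC box, against 32.7% of all 32851 windows of the same length. The cyclic AMP response element was in 4.88% (Syn1 and Sh3gl2) against 1.55% of all windows and the REST letters in 4.88% (Syn1 and Nlgn1) against 1.32%. A match of letters is a description and not a site of binding. None of the 3 motifs contains another.

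Among the excitatory scaffold genes, Shank2 had the smallest p of all members. Shank proteins are the deep layer of the postsynaptic density and link the membrane scaffold to actin. Shank2 (ENSMUSG00000037541) measured 15.5, 18.2 and 19.9 FPKM in chow replicates 1, 2 and 3 and 26.2, 24.4 and 22.5 FPKM in ketogenic replicates 1, 2 and 3, so that every ketogenic library lay above every chow library. The means were 17.9 ± 2.23 and 24.4 ± 1.84 FPKM (SD, n = 3). The log2 change was 0.44 ± 0.12 (SE), with 95% limits of 0.15 and 0.74. In limma the unadjusted p was 0.0102 and the adjusted p 0.752. The change was 0.35 without chow replicate 1 and 0.32 when the thalamic score was fitted. Its paralogs did not share this pattern. Shank1 (ENSMUSG00000038738) measured 39.7, 33.2 and 48.7 FPKM in the chow and 59.2, 45.4 and 36.4 FPKM in the ketogenic libraries, with its lowest value in chow replicate 2. Shank3 (ENSMUSG00000022623), whose loss in mice impairs corticostriatal synapses, measured 43.1, 29.8 and 21.4 FPKM in the chow and 24.6, 31.6 and 18.1 FPKM in the ketogenic libraries. It was the only scaffold member with a negative log2 change (-0.32, and -0.062 without chow replicate 1), and chow replicate 1 was its highest library. Whether the Shank genes differ from each other in their response was not tested.

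The membrane-near scaffolds overlapped between diets. Dlg4 (ENSMUSG00000020886), which encodes the main scaffold of glutamatergic synapses, measured 35.3, 58.5 and 48.3 FPKM in the chow and 60.1, 69.4 and 48.4 FPKM in the ketogenic libraries, a log2 change of 0.34 ± 0.22 (SE; 0.14 without chow replicate 1). Dlg2 (ENSMUSG00000052572), its close relative, measured 12.4, 31.8 and 25.5 FPKM in the chow and 26.6, 29.1 and 25.2 FPKM in the ketogenic libraries. Chow replicate 1 was low and the other 5 libraries lay together, so the log2 change of 0.31 became -0.080 without that library and -0.33 with the thalamic score.

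Of the adhesion and inhibitory scaffold genes, Nlgn2 was higher in every ketogenic library. Nlgn2 (ENSMUSG00000051790), the neuroligin of inhibitory synapses, measured 32.0, 40.2 and 36.1 FPKM in the chow libraries and 43.8, 49.2 and 43.7 FPKM in the ketogenic libraries. The means were 36.1 ± 4.07 and 45.6 ± 3.16 FPKM (SD, n = 3), a log2 change of 0.34 ± 0.12 (SE; unadjusted p = 0.0252, adjusted p = 0.752 in limma). The change became 0.25 when chow replicate 1 was left out and 0.18 with the thalamic score. Nlgn1 (ENSMUSG00000063887), the neuroligin of excitatory synapses, had the lowest group means of the members at 5.21 ± 1.4 and 6.06 ± 0.758 FPKM (SD, n = 3), with a log2 change of 0.23 that was 0.023 without chow replicate 1. Gephyrin (ENSMUSG00000047454, Gphn), which clusters GABA-A and glycine receptors and binds the Nlgn2 protein, varied least of all members. It measured 22.2, 24.2 and 22.7 FPKM in the chow and 21.3, 23.2 and 25.0 FPKM in the ketogenic libraries, and its log2 change of 0.0041 had 95% limits of -0.23 and 0.24. The highest library exceeded the lowest by a factor of 1.17.

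The endocytosis genes spread least between libraries of the 7 role groups, with a median ratio of 1.27 between a gene's highest and lowest library. Amph (ENSMUSG00000021314), whose product amphiphysin senses membrane curvature at the neck of the forming vesicle, measured 36.6, 38.3 and 39.0 FPKM in chow replicates 1, 2 and 3 and 44.0, 45.5 and 48.3 FPKM in ketogenic replicates 1, 2 and 3. The groups did not overlap, and the means were 38.0 ± 1.24 and 45.9 ± 2.21 FPKM (SD, n = 3). The log2 change was 0.27 ± 0.087 (SE; unadjusted p = 0.0186, adjusted p = 0.752 in limma), and it stayed between 0.23 and 0.30 when any 1 library was left out. Synj1 (ENSMUSG00000022973), the lipid phosphatase synaptojanin that removes the clathrin coat, measured 53.4, 58.7 and 59.1 FPKM in the chow and 65.2, 59.7 and 64.9 FPKM in the ketogenic libraries, without overlap but with a gap of under 1 FPKM. Dnm1 (ENSMUSG00000026825), the GTPase dynamin that cuts the vesicle off, measured 175, 171 and 217 FPKM in the chow and 248, 217 and 182 FPKM in the ketogenic libraries, with overlap. Sh3gl2 (ENSMUSG00000028488), an endophilin that recruits the other proteins of this step, had a log2 change of 0.016, with 95% limits of -0.25 and 0.28.

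**Figure D4:**
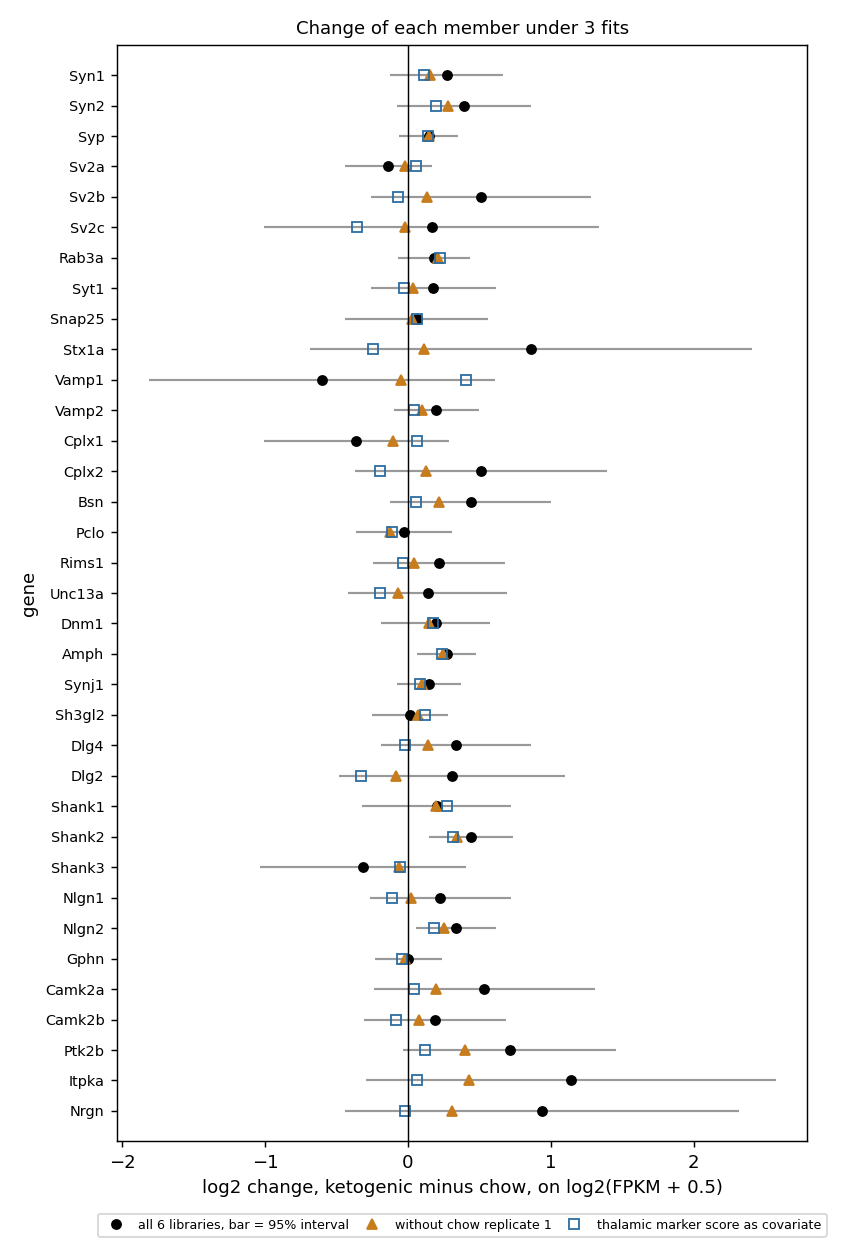
Log2 change of each member, ketogenic minus chow, in the fit of all 6 libraries (black points with 95% intervals), without chow replicate 1 (orange triangles) and with the thalamic score in the fit (blue squares). The intervals of Amph, Shank2 and Nlgn2 lie above 0, and the black points of Itpka, Nrgn, Stx1a and Vamp1 lie far from their triangles and squares.

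Among the vesicle proteins, the SV2 paralogs differed in which libraries were high. Sv2a (ENSMUSG00000038486) measured 128, 96.8 and 104 FPKM in the chow and 95.3, 102 and 99.4 FPKM in the ketogenic libraries, with chow replicate 1 highest and the other 5 libraries within 95.3 to 104 FPKM. Its log2 change was -0.14, with 95% limits of -0.44 and 0.17, and came to -0.018 without chow replicate 1 and 0.056 with the thalamic score. Sv2b (ENSMUSG00000053025) went the other way in chow replicate 1, with 28.5, 64.5 and 62.0 FPKM in the chow and 69.1, 79.1 and 61.0 FPKM in the ketogenic libraries, and its log2 change of 0.51 was 0.13 without that library. Sv2c (ENSMUSG00000051111) measured 6.2, 16.0 and 5.35 FPKM in the chow and 5.17, 11.9 and 12.5 FPKM in the ketogenic libraries, high in chow replicate 2 and ketogenic replicates 2 and 3. Those are the 3 libraries with the highest striatal markers, and the part of these markers in the Sv2c values was not tested.

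Syp and Rab3a spread less between libraries than the SV2 genes did. Synaptophysin, a major membrane protein of the vesicle (Syp, ENSMUSG00000031144), measured 89.4, 89.9 and 87.6 FPKM in the chow and 97.5, 104 and 94.2 FPKM in the ketogenic libraries, without overlap. Its chow libraries were nearly equal, and the means were 88.9 ± 1.2 and 98.5 ± 4.81 FPKM (SD, n = 3), a log2 change of 0.15 ± 0.087 (SE; unadjusted p = 0.142 in limma). The change was 0.15 without chow replicate 1 and 0.14 when the thalamic score was fitted. Rab3a (ENSMUSG00000031840), the GTPase that marks vesicles ready for docking, measured 168, 156 and 159 FPKM in the chow and 182, 199 and 167 FPKM in the ketogenic libraries, and only chow replicate 1 reached the lowest ketogenic library. The synapsin genes, whose products tether vesicles to actin in the reserve pool, both overlapped. Syn1 (ENSMUSG00000037217) measured 104, 125 and 141 FPKM in the chow and 157, 165 and 124 FPKM in the ketogenic libraries. Syn2 (ENSMUSG00000009394) measured 42.4, 59.5 and 48.6 FPKM in the chow and 55.9, 59.8 and 83.6 FPKM in the ketogenic libraries, highest in ketogenic replicate 3, where Syn1 was lowest of that diet. Their log2 changes were 0.27 ± 0.16 and 0.39 ± 0.20 (SE), where Syn1 had 0.15 once chow replicate 1 was left out and Syn2 had 0.22 once ketogenic replicate 3 was.

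Within the fusion machinery the members of 2 paralog pairs lay on opposite sides in chow replicate 1. Vamp1 (ENSMUSG00000030337), a vesicle SNARE, measured 52.1, 11.3 and 22.8 FPKM in the chow and 16.8, 13.5 and 16.5 FPKM in the ketogenic libraries, and chow replicate 1 was above every other library, of which the next was 22.8 FPKM. Its log2 change of -0.60 ± 0.50 (SE) was -0.045 without that library and 0.40 with the thalamic score. Vamp2 (ENSMUSG00000020894), the main vesicle SNARE of the forebrain, measured 146, 183 and 179 FPKM in the chow and 205, 189.6 and 186 FPKM in the ketogenic libraries, without overlap, at a log2 change of 0.20 ± 0.12 (SE). Vamp2 had a log2 change of 0.10 without chow replicate 1, 0.040 with the thalamic score and 0.063 after quantile normalization. Complexins clamp and then assist the SNARE complex. Cplx1 (ENSMUSG00000033615) measured 412, 212 and 277 FPKM in the chow and 260.0, 243 and 179.6 FPKM in the ketogenic libraries, highest in chow replicate 1. Cplx2 (ENSMUSG00000025867) measured 92.8, 263 and 160.5 FPKM in the chow and 211, 269 and 200.0 FPKM in the ketogenic libraries, lowest in chow replicate 1. The log2 changes of -0.36 for Cplx1 and 0.51 for Cplx2 were -0.11 and 0.13 without that library.

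Of the plasma membrane SNAREs and the calcium sensor, Stx1a varied most. Stx1a (ENSMUSG00000007207), a syntaxin, measured 13.3, 60.6 and 69.3 FPKM in the chow and 79.7, 93.3 and 46.3 FPKM in the ketogenic libraries, a ratio of 7.01 between the highest and the lowest library. Its log2 change of 0.86 ± 0.64 (SE) became 0.11 when chow replicate 1 was left out and -0.24 with the thalamic score. Snap25 (ENSMUSG00000027273), its SNARE partner, measured 320.2, 299 and 390.1 FPKM in the chow and 413, 394 and 262 FPKM in the ketogenic libraries, lowest in ketogenic replicate 3, with a log2 change of 0.063 and 95% limits of -0.44 and 0.56. Syt1 (ENSMUSG00000035864), the calcium sensor of fast release, measured 157, 201 and 221 FPKM in the chow and 245, 231 and 178 FPKM in the ketogenic libraries. The groups of Snap25 and Syt1 overlapped.

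All 4 active zone genes were lowest in chow replicate 1, and none separated the diets. Bassoon (Bsn, ENSMUSG00000032589), a giant scaffold of the release site, measured 21.6, 37.0 and 31.7 FPKM in the chow and 40.6, 48.3 and 32.5 FPKM in the ketogenic libraries, a log2 change of 0.44 ± 0.23 (SE) that was 0.22 without that library. Piccolo (Pclo, ENSMUSG00000061601), its structural relative, measured 11.2, 12.3 and 15.7 FPKM in the chow and 13.4, 12.1 and 12.7 FPKM in the ketogenic libraries, with a log2 change of -0.025 that was 0.030 after centring each library on its median gene. Rims1 (ENSMUSG00000041670), which couples vesicles to calcium channels, had means of 30.5 ± 6.25 and 35.4 ± 5.45 FPKM (SD, n = 3). Unc13a (ENSMUSG00000034799), the vesicle priming factor, had means of 38.5 ± 9.07 and 42.2 ± 8.56 FPKM and a log2 change of 0.14 that was -0.072 without chow replicate 1.

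Ratios of related members within a library carry no library scaling, and chow replicate 1 stood apart in several of them. The Sv2a to Sv2b ratio was 4.50 in chow replicate 1 and 1.30 to 1.68 in the other 5 libraries. The Cplx2 to Cplx1 ratio was 0.225 in chow replicate 1, 0.580 in chow replicate 3 and 0.810 to 1.24 in the other 4. The Vamp2 to Vamp1 ratio was 2.80 in chow replicate 1, 7.86 in chow replicate 3 and 11.3 to 16.2 in the others. In both of these pairs the libraries with the 2 highest thalamic marker sums, chow replicates 1 and 3, held the 2 lowest ratios. Not every pair had this order, and the part of the thalamic markers in the ratios was not tested. The Camk2a to Camk2b ratio was 2.42 and 3.10 in chow replicates 1 and 2 and 3.96 to 4.86 in the other 4 libraries, highest in chow replicate 3. The Shank1 to Shank3 ratio was 0.921, 1.11 and 2.27 in chow replicates 1, 2 and 3. The Nlgn1 to Nlgn2 ratio ran from 0.116 to 0.162 with both diets mixed. In none of the 9 pairs did the diets separate.

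**Figure D5:**
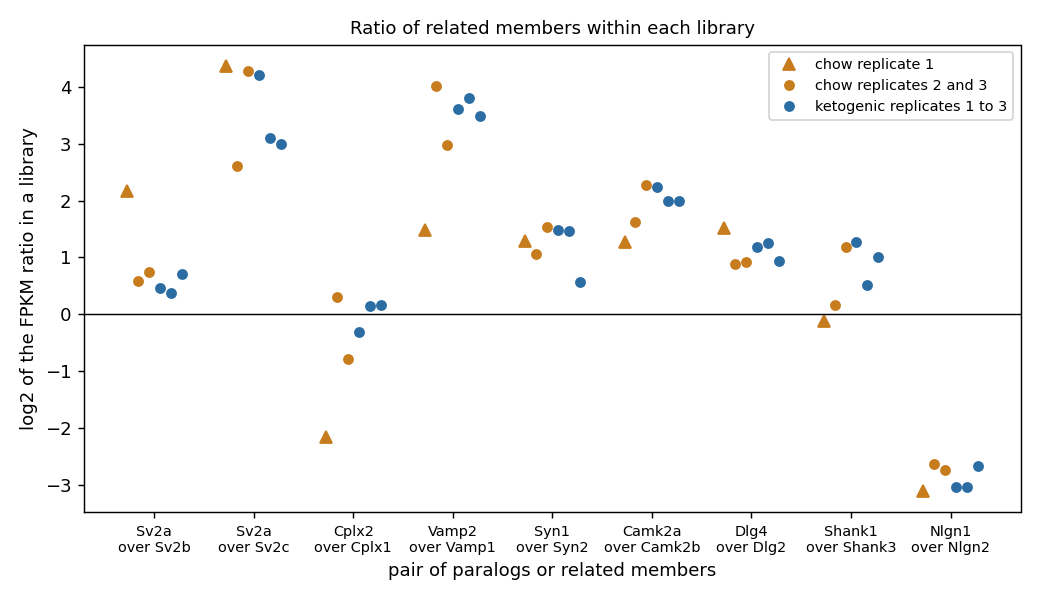
The log2 of the FPKM ratio of 2 related members in each library, for 9 pairs, with chow replicate 1 as a triangle, the other chow libraries as orange points and the ketogenic libraries as blue points. Chow replicate 1 lies outside the range of the other 5 libraries in 8 of the 9 pairs, all but Syn1 over Syn2, and the diets overlap in every pair. It lies only just outside for Sv2a over Sv2c (4.37 against 4.28 in chow replicate 3). The same holds for Nlgn1 over Nlgn2 (-3.11 against -3.04 in ketogenic replicate 2). How often this library lies outside in pairs of other genes was not counted.

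The other genes of the synapse, taken from 8 lists of 147 genes with no member among them, were all measured and none passed the test (adjusted p of 0.752 or more). The log2 change was above 0 in 101 and below 0 in 46, with a median of 0.11 (0.06 without chow replicate 1, and 0.0087 with 76 of 147 above 0 when the thalamic score was fitted). Groups did not overlap in 10 on the higher side (6.8%, against 4.9% of all genes) and in 2 on the lower side (1.36%, against 7.49%), and chow replicate 1 was lowest in 68 (46.3%, against 22%). Excitatory scaffold genes had 20 of 22 above 0 with a median of 0.28, and 18 of 22 were lowest in chow replicate 1. Without that library the median was 0.06, and with the thalamic score it was -0.080, with 8 of 22 above 0. In this list Iqsec2, an exchange factor for ARF6 at excitatory synapses, had a log2 change of 0.62, and Dlgap1 one of 0.49 (0.35 and 0.24 without chow replicate 1). Postsynaptic calcium signalling genes had 16 of 20 above 0 with a median of 0.23 (0.06 without chow replicate 1 and 0.0081 with the thalamic score). Rasgrf2 and Camkv had log2 changes of 0.51 and 0.70 (0.27 and 0.35 without chow replicate 1).

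The other presynaptic lists were divided between the directions. Vesicle genes had 12 of 18 above 0 (median 0.06), fusion genes 9 of 14 (0.16), active zone genes 8 of 15 (0.05) and endocytosis genes 14 of 22 (0.06). Syt2, a calcium sensor of fast synapses in the brainstem, measured 26.7, 11.6 and 17.1 FPKM in the chow and 11.9, 8.71 and 10.1 FPKM in the ketogenic libraries, with its highest level in chow replicate 1, like Vamp1 and Cplx1. Its log2 change of -0.75 was -0.45 without that library. Syt5 had a log2 change of 0.74, which became 0.25 without chow replicate 1 and -0.018 when the thalamic score was fitted, and Atp6v0a1 one of 0.18, which was 0.12 without ketogenic replicate 2. The fusion genes Cadps2 and Napb had log2 changes of 0.83 and 0.21 (0.43 and 0.12 without chow replicate 1), and the active zone genes Rims2 and Lin7a of -0.28 and 0.24 (-0.18 and 0.067 without it). The active zone gene Unc13c had one of -1.14, which ranged from -1.84 to -0.56 over the fits that left out 1 library, ketogenic replicates 1 and 3 each moving it by more than 1.5 times. In endocytosis Ap2a2 had a log2 change of 0.30, Dnm3 of -0.35 (-0.21 without chow replicate 1) and Ap2s1 of 0.27 (0.16 to 0.35 over such fits, moved by more than 1.5 times without chow replicate 3 or ketogenic replicate 2). Adhesion genes had 16 of 27 above 0 (median 0.04) and inhibitory postsynaptic genes 6 of 9 (0.10). Cadm2, an immunoglobulin-type adhesion protein, measured 26.4, 29.0 and 30.2 FPKM in the chow and 25.5, 21.3 and 21.4 FPKM in the ketogenic libraries, without overlap, and Ptprs, a receptor phosphatase of presynaptic adhesion, 23.4, 27.4 and 25.9 against 31.0, 31.6 and 30.3 FPKM. Their log2 changes were -0.32 and 0.27, that of Nrxn2 was 0.34, and those of Shisa7, Mdga1 and Mdga2 were 0.60, 0.25 and -0.34. Shisa7 had 0.25 without chow replicate 1 and -0.047 with the thalamic score, Mdga1 had 0.39 without chow replicate 2, and Mdga2 had -0.22 without ketogenic replicate 2.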

How the data were processed

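Libraries were made from poly(A) RNA with an ABclonal kit and read on Illumina NovaSeq or MGISEQ-T7 machines, per the labels' protocols. HISAT2, featureCounts (Subread) and build GRCm39 are named in the submitters' processing notes, with strand setting and annotation not given in the sources used here, so reads of overlapping genes may be shared. The authors deposited FPKM, 1 column per mouse. Values were whole multiples of a step, and whole reads were recovered for 100% of genes above 0 (tolerance 0.001), up to a factor per gene. Totals ran from 39927217 to 55910355, and each member had at least 1003 in each library. Every pair of libraries differed beyond counting noise (chi-square per gene of 45.3 or more). Symbols came from GENCODE M21 by identifier (35175 matched).

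All genes averaging 0.5 FPKM or more were fitted with limma 3.58.1 (R 4.3.3, eBayes with trend) on log2(FPKM + 0.5), diet being the only term. Fold changes are on that scale, which understates low genes. The fit was also run on simulated reads with larger changes than most members had. That run had to pass only 1 check, that most changes got the right sign. Power for changes as small as the members' median was not tested. Members and lists were chosen with earlier results of these data known. All 35 members are named, with up to 3 genes per list of other synapse genes by smallest p and a mean of at least 1 FPKM. Some of the latter are not reported here. A marker score is the median deviation of a list's genes from their means. The 16 alternatives were 2 pseudocounts, 2 filters, quantile normalization, median centring, a replicate block, 2 marker covariates, voom on recovered reads and leaving out each library.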

Additional observations from a re-analysis of the deposited data

How the results depend on the processing

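No gene and no member was called under any of the 16 alternatives (limma or voom). Members at an unadjusted p under 0.05 were 3, ranging from 2 to 8 when 1 library was left out (8 without chow replicate 2), and 1 with the pan-neuronal marker score as a covariate. All genes at that p were 329 higher and 532 lower. They rose to 669 and 1176 without chow replicate 2, and were 158 and 217 with the pan-neuronal score. After quantile normalization they were 403 and 410, and after centring 490 and 379. When 1 library was left out, the members' median log2 change, 0.20, ranged from 0.11 (without chow replicate 1) to 0.31 (without ketogenic replicate 3). It was 0.056 with the thalamic score and 0.11 with the pan-neuronal score. In 15 members, among them Amph, Shank2, Nlgn2, Syp, Ptk2b and Itpka, the sign held in every setting. The share of all genes for which it held was not counted. Both pseudocounts, both filters, the replicate block and voom turned the sign of 0 members. The filters and the block leave the log2 change itself unaltered. With the thalamic score 16 members changed sign: Sv2a (0.056), Sv2b (-0.070), Sv2c (-0.35), Syt1 (-0.025), Stx1a (-0.24), Vamp1 (0.40), Cplx1 (0.066), Cplx2 (-0.19), Rims1 (-0.035), Unc13a (-0.19), Dlg4 (-0.019), Dlg2 (-0.33), Nlgn1 (-0.11), Gphn (-0.042), Camk2b (-0.083) and Nrgn (-0.018). With the pan-neuronal score 7 did: Sv2c (-0.19), Vamp1 (0.029), Unc13a (-0.027), Dlg2 (-0.12), Shank3 (0.019), Nlgn1 (-0.042) and Gphn (-0.051). Centring gave Pclo (0.030) and quantile normalization Sh3gl2 (-0.019) and Gphn (-0.024). Leaving out a library changed the sign of Sv2c (-0.11 to 0.63), Snap25 (-0.058 to 0.27), Unc13a (-0.072 to 0.32), Pclo (-0.12 to 0.11), Sh3gl2 (-0.049 to 0.080), Dlg2 (-0.080 to 0.58) and Gphn (-0.051 to 0.062), given as ranges over the 6 libraries. The cause of these changes was not tested.

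The labels do not say that same-numbered mice of the 2 diets are paired, so the numbers were not taken to pair them. Deviations of same-numbered mice had correlations of -0.037, 0.48 and -0.215. These cannot decide whether mice were paired, since the libraries also differed in regional markers. With the replicate block 4 members had an unadjusted p under 0.05, where 359 of all genes were higher and 623 lower. The median log2 change was 0.20, and no call changed. Each member had at least 1003 recovered reads in every library, so none was near the limit of detection.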

Other observations

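Ketogenic replicate 3 was the lowest of the ketogenic libraries in 26 of the 35 members, against 28.9% of all genes. It held the lowest summed level of that diet in excitatory neuron markers (a sum of 193 FPKM, where ketogenic replicate 1 had 360.1 and ketogenic replicate 2 had 332 FPKM) and the highest in oligodendrocyte markers (1412 FPKM, where the other two had 866 and 617 FPKM). In 4 members it was instead the highest of all 6 libraries, at 83.6 FPKM for Syn2, 6.86 FPKM for Nlgn1, 48.3 FPKM for Amph and 25.0 FPKM for Gphn. The part of the markers in these values was not tested.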
